A study of Drosophila melanogaster with 9 samples.

Results

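Broad accessible domains are stretches of open chromatin in which a single ATAC-seq peak runs for 1000 bp or more. They were chosen by peak width: every peak of at least 1000 bp in any of the 4 peak lists made from merged replicates was taken, peaks that overlapped were joined, and the intervals of the chorion gene clusters on 3L (8.7 to 8.76 Mb) and X (8.45 to 8.51 Mb) were left out. This gave 822 domains, built from 1162 peaks, of 69162 accessible intervals in the 4 lists together. The domains spanned 1000 to 2275 bp with a median of 1156 bp, and covered 0.729% of the chromosome arms. Because the widths of the merged lists selected the members, and the lists of single libraries come from the same reads, widths are given as a description with no p-value. For 2 against 2 libraries an exact two-sided test could not fall below a p of 0.333.

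The study asked which regulatory regions differ when l(3)mbt is deleted in ovarian somatic cells (OSCs), and where chromatin is open in the ovary. OSCs are a cultured female Drosophila melanogaster line of follicle cell origin without germ cells. They were used as wild-type cells (n = 2 libraries) and as Δl(3)mbt cells (n = 2), a separate line in which the gene of the chromatin protein L(3)mbt, a repressor of germline genes in somatic tissue, is deleted. Whole dissected ovaries came from the w1118 strain (n = 2, 6 ovaries each) and from a transgenic vas-EGFP strain, w[*]; TI{TI}vas[AID:EGFP], that carries a tag in the vas gene (n = 3, with 6, 10 and 30 ovaries, given here as replicates 1, 2 and 3). Each OSC line is 1 line, so that its libraries are cultures of the same cells; nothing in the labels says how separate they were. The ovaries of a library were pooled, and they contain both germline and follicle, sheath and other somatic cells; ages were not given in the sources used here. Coordinates are 1-based on dm6.

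In ATAC-seq a transposase inserts sequencing adapters where DNA is free of nucleosomes, so that a peak at a fly promoter or enhancer is usually about as long as 1 gap in the nucleosome array. Longer open stretches are known at genes under strong or inducible transcription and where regulatory elements lie side by side. GAGA factor and CLAMP, proteins that bind GA-rich repeats such as GAGAG, are known to keep promoters of developmental and heat shock genes open in Drosophila.

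The 6 sequences that follow show what the DNA at the summit of a domain looked like in each class described below. For each class the widest domain was taken whose 300 bp around the summit lay outside annotated UTRs, with 1 chromosome arm left out. All are plus-strand dm6 sequence from RefSeq, 5′ to 3′, in lower case, and capitals mark matches on either strand to GAGAG or to TGANTCA, the site of AP-1 factors.
pot, coding exon, chrX:11908789-11909088, broad in the merged wild-type OSC list alone: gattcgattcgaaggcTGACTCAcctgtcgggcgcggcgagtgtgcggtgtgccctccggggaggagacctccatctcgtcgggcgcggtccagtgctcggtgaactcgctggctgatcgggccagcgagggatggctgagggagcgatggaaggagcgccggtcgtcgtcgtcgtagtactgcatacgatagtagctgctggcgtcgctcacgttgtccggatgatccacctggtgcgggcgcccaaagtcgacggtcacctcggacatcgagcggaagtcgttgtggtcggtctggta
intergenic, chrX:23452918-23453217, broad in the wild-type and Δl(3)mbt lists: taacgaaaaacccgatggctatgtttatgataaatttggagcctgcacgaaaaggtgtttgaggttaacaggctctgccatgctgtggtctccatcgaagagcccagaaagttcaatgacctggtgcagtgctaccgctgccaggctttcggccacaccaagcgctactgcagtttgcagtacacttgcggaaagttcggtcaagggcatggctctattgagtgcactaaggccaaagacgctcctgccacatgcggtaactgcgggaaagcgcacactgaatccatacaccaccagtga
near lncRNA:CR44801, chr2L:986257-986556, broad in the Δl(3)mbt list alone: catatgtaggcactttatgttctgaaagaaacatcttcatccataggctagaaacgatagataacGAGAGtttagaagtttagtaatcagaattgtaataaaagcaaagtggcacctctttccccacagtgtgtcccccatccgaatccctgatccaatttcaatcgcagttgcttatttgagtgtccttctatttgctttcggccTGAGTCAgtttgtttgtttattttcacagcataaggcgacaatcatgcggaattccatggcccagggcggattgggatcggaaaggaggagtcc
lncRNA:Hsromega, over its TSS, chr3R:21296373-21296672, broad in the ovary lists alone: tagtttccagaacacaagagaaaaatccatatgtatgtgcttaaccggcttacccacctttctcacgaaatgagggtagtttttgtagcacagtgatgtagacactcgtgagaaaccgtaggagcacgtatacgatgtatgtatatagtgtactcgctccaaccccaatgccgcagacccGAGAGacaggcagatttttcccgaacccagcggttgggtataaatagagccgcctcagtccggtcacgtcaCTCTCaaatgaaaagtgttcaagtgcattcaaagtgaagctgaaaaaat
intron of CG1677, chrX:7300795-7301094, broad in all 4 lists: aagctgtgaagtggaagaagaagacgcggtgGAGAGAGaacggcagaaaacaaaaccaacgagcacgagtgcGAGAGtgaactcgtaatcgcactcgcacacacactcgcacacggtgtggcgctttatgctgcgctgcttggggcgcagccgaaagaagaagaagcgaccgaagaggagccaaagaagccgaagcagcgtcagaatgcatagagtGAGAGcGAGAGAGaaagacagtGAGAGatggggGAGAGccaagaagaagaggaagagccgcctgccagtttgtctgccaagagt
intergenic near Rilpl, chrX:1399029-1399328, at least 1000 bp wide in all 9 libraries: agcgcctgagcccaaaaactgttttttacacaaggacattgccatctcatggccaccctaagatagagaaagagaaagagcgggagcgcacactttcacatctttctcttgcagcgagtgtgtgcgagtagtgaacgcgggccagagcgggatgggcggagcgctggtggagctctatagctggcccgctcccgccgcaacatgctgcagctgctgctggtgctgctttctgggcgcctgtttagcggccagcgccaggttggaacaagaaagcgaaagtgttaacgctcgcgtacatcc
The windows differed in composition. The pot window had a GC content of 64.3% and 92% of it was coding sequence, whereas the lncRNA:Hsromega window had a GC content of 45.3% and the window near lncRNA:CR44801 had 43%, both without coding sequence. The CG1677 window held 8 matches to GAGAG, several of them in overlapping GA runs, and the Rilpl window held no match to either motif.

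One library stood apart before any comparison. Wild-type OSC replicate 1 had 59349 peaks over 14.5 Mb, of which 639 were at least 1000 bp wide, whereas wild-type replicate 2 had 22006 peaks over 4.74 Mb with 44 broad ones. The Δl(3)mbt libraries had 177 and 87 broad peaks, the w1118 libraries 130 and 77, and the vas-EGFP libraries 52, 38 and 47. At least 50% of the length lay in coding exons for 79.5% of the broad peaks of wild-type replicate 1, and for 1.54% to 13.6% of those of the other 8 libraries. Their median GC content was 58.2% in wild-type replicate 1 and 46.3% to 48.4% elsewhere, and their median fold enrichment was 3.48 against 6.9 to 12.5. Read totals were not used here, and a peak's width depends on the depth and background of its own library, so widths are compared with that in mind. Peaks within 200 bp of a TSS were found at all 6 somatic follicle markers in every library. Of 8 germline markers, 2 or 3 had such a peak in OSC libraries and 5 to 8 in ovary libraries. Muscle markers had 5 to 10 of 12 and hemocyte markers 2 to 4 of 7, in OSC and ovary libraries alike, so the presence of a peak did not separate those cell types. The part of depth and of cell makeup in the widths was not tested.

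The domains were of 2 kinds, divided here, after their values were seen, by the lists in which they were broad. Of the 822, 385 (the first kind) were at least 1000 bp wide in the merged wild-type OSC list alone, and 437 in at least 1 other list. The 385 had a median GC content of 59.5% (quartiles 56.5% and 61.4%) and a median of 97.9% of their length in coding exons. The 437 had a median GC content of 46.6% (quartiles 44% and 50.2%) and a median coding share of 0%. By comparison, all 69162 intervals had a median GC content of 52.7%, and the 6991 intervals whose widest peak measured 500 to 999 bp had 49.9%. A TSS lay inside 86 of the 385 (22.3%) and inside 297 of the 437 (68%), against 34.7% of the 500 to 999 bp intervals and 14.1% of all intervals. Distal regions that were mostly coding exon made up 191 of the 385 and 15 of the 437. The median fold enrichment in the merged wild-type list was 3.01 over the first kind and 6.68 over the second.

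**Figure D1:**
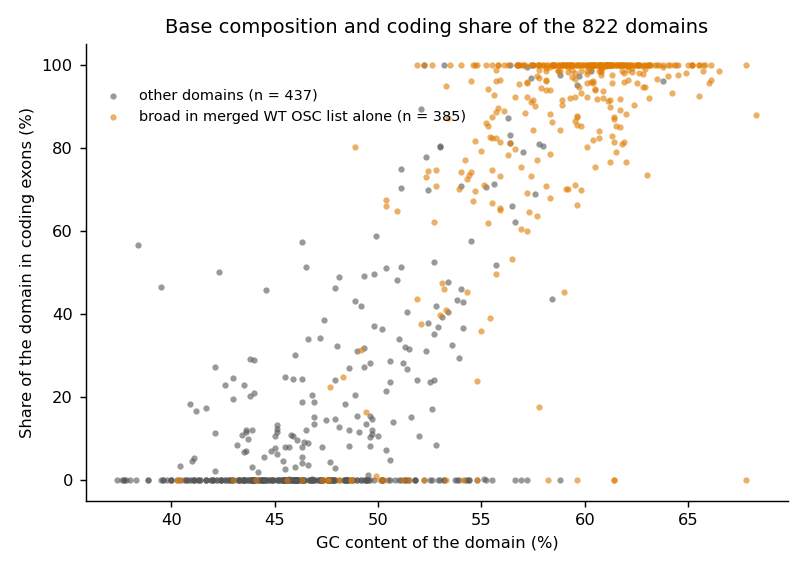
Each point is 1 of the 822 domains, placed by its GC content (x axis, %) and by the share of its length in coding exons (y axis, %); orange points are the 385 domains broad in the merged wild-type OSC list alone and grey points the other 437. The orange points gather at the upper right, around their medians of 59.5% GC and 97.9% coding, and the grey points along the bottom, around 46.6% GC and 0% coding.

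The domains of the first kind were wide in 1 library. Their median width was 1159 bp in wild-type replicate 1 and 0 bp (no peak) in wild-type replicate 2, 370 and 0 bp in the 2 Δl(3)mbt libraries, and 0 bp in each of the 5 ovary libraries. These widths count only the widest peak. In Δl(3)mbt replicate 1, 379 of the 385 had a peak, with a median of 2 peaks that together covered a median of 648 bp. Of the 385, 322 (83.6%) reached 1000 bp in wild-type replicate 1 and in no other library, and 199 had no peak at all in wild-type replicate 2. None of them reached 1000 bp in both wild-type libraries, whereas 36 of the 437 did. Widths also differed by replicate number: both replicate 1 libraries were wider than both replicate 2 libraries at 342 of the 385 (88.8%) and at 159 of the 437 (36.4%), and the share over all 69162 intervals was 20.6%. The reverse, both replicate 2 libraries wider, held at 1 of the 385 and 22 of the 437, with 5.93% over all intervals. This split by replicate number was looked at after the widths were seen. The numbers are those of the sample labels. The peak names inside the second lists carry a replicate number of 3 for wild-type and 4 for Δl(3)mbt, so a shared number 2 need not mark a shared batch.

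**Figure D2:**
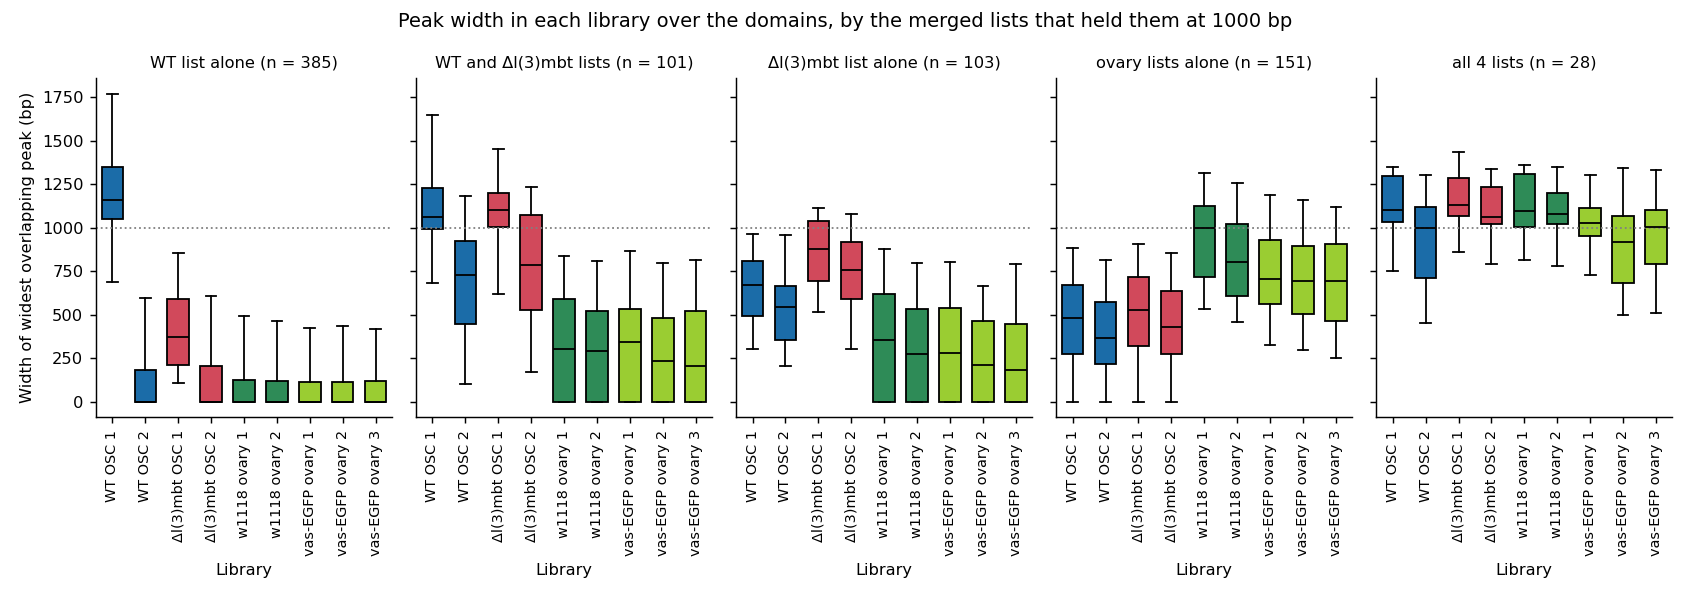
Width of the widest peak that overlaps each domain (y axis, bp; 0 where there is none) in each of the 9 libraries (x axis), with the domains in 5 panels by the merged lists that held them at 1000 bp; lines are medians, boxes quartiles and whiskers the 5th and 95th percentiles, and the dotted line marks 1000 bp. In the left panel 1 library, wild-type OSC 1, stands at a median of 1159 bp and 7 of the others at 0 bp, while in the right panel the 9 medians lie between 920 and 1129 bp.

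The widest domains of the OSC lists were mostly of this coding kind. After the four-jointed domain described below, the next 6 lay in coding exons of pot (a zona pellucida protein that attaches epithelium to cuticle), Ork1 (a potassium leak channel), cher (filamin), zfh1 (a zinc-finger homeodomain factor of the somatic gonad), the neighbours CG9394 and ktub, and egl (an adaptor for mRNA transport into the oocyte). Their coding share was 100%, their GC content 55.8% to 63%, and their widths in the merged wild-type list 1916 to 2186 bp. At pot the widths were 2179 and 101 bp in the wild-type libraries, 355 and 0 bp in the Δl(3)mbt libraries, and in the ovaries 0 bp in 4 libraries and 166 bp in vas-EGFP replicate 3. At zfh1 they were 1961 and 0 bp in wild-type, 573 and 99 bp in Δl(3)mbt and 0 bp in all 5 ovary libraries. In both, wild-type replicate 1 alone passed 600 bp. Hsc70-4, the constitutive Hsp70 cognate, showed both kinds side by side. Its coding exon domain (3R, 15244432 to 15246321) had 1867 and 0 bp in the wild-type libraries and at most 133 bp in the other 7. The domain over its TSS (3R, 15242885 to 15243955) had 387 and 346 bp in wild-type, 401 and 406 bp in Δl(3)mbt, 571 and 585 bp in w1118, and 1075, 587 and 1049 bp in vas-EGFP ovaries, so that every ovary library was wider than every OSC library there. CG32447 (3L, 21704686 to 21706556) was of the first kind with its TSS inside: it had 1962 and 325 bp in wild-type, 554 and 252 bp in Δl(3)mbt and at most 73 bp in ovaries, with a GC content of 58.3% and 78.5% coding sequence.

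The other OSC domains lay mostly over promoters and were seen in more libraries. Of the 204 domains broad in OSC lists that included the Δl(3)mbt list but no ovary list, 101 were broad in both OSC lists and 103 in the Δl(3)mbt list alone. A TSS lay inside 53 of the 101 (52.5%) and 63 of the 103 (61.2%). The widest was at four-jointed (fj), which encodes a Golgi kinase that modifies the cadherins Fat and Dachsous (2R, 18232540 to 18234814). Its widths were 1807 and 930 bp in wild-type, 913 and 722 bp in Δl(3)mbt, 237 and 246 bp in w1118 and 0 bp in all 3 vas-EGFP libraries. Every OSC library was thus wider than every ovary library at fj and both wild-type libraries wider than both Δl(3)mbt libraries, although 930 and 913 bp are close. In the merged lists fj measured 2271 bp in wild-type and 1950 bp in Δl(3)mbt OSCs, with a fold enrichment of 6.38 and 6.83. An intergenic domain on the X (23452170 to 23454065) had 1618 and 811 bp in wild-type and 1121 and 433 bp in Δl(3)mbt, and no peak in any ovary library. In both, replicate 1 was the wider library of each genotype.

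In 151 domains the breadth was reached in ovary lists alone. They lay mostly over promoters, and a TSS lay inside 119 (78.8%). TSSs of 2 or more genes lay inside 31 (20.5%), against 4.88% of the 500 to 999 bp intervals and 1.52% of all intervals, which are shorter. The share was 13.9% in the domains of both OSC lists without an ovary list, and 13.6% in those of the Δl(3)mbt list alone. The summit was within 200 bp of a TSS in 91 (60.3%), against 28.4% of the 500 to 999 bp intervals and 15.8% of all intervals. All but 1 of the 151 had a peak in all 5 ovary libraries, and 123 had a peak in all 9. Their median width was 1000 and 804 bp in the w1118 libraries and 705, 696 and 694 bp in the vas-EGFP libraries, and 368 to 529 bp in the 4 OSC libraries. Most were thus also open in OSCs, over a shorter stretch.

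The widest was at lncRNA:Hsromega, the long noncoding RNA of the heat-inducible hsrω locus (3R, 21296367 to 21298216). Its widths were 1306 and 1302 bp in w1118, 1296, 1828 and 1846 bp in vas-EGFP, 916 and 508 bp in wild-type OSCs and 581 and 305 bp in Δl(3)mbt OSCs. The ovary libraries did not overlap the OSC libraries. Other wide ones were at CG13114 with 1707 bp in the merged vas-EGFP list and in an intron of 14-3-3epsilon (a phosphoserine-binding adaptor) with 1643 bp in the merged w1118 list. CG13114 had 1176 and 1424 bp in w1118 and 1189, 1526 and 1296 bp in vas-EGFP, against 664 and 0 bp in wild-type and 308 and 0 bp in Δl(3)mbt OSCs. DnaJ-1, an Hsp40 co-chaperone, varied more within the groups: it had 911 and 656 bp in w1118, 301, 1542 and 1063 bp in vas-EGFP, 1117 and 296 bp in wild-type and 279 and 287 bp in Δl(3)mbt OSCs, and the materials overlapped. Further members of the 12 widest were at mub (an RNA-binding protein), CG9663, Tsp42Ee (a tetraspanin), CG33229, sdk (an adhesion protein of cell vertices), cnc (the Nrf2-type stress factor) and SCAP (an escort of the lipid regulator SREBP). They measured 1454 to 1560 bp in the list where each was widest. At CG33229 no library reached 1000 bp, with 877 to 899 bp in OSC and 844 to 902 bp in ovary libraries. At mub only w1118 replicate 1 did (1200 bp), and OSC libraries had 625 to 819 bp. The materials overlapped at both, and also at Tsp42Ee, sdk, cnc and SCAP, but not at CG9663.

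Breadth in both materials was seen at 82 domains, of which 28 were broad in all 4 merged lists. Every one of the 28 had a peak in all 9 libraries, and a TSS lay inside 16. The domain in an intron of CG1677 (X, 7299649 to 7301371) measured 1712, 1701, 1717 and 1702 bp in the 4 merged lists. In single libraries it had 1714 and 1671 bp in wild-type, 1671 and 1707 bp in Δl(3)mbt, 977 and 1709 bp in w1118, and 973, 953 and 1698 bp in vas-EGFP, so that it was listed at 1671 bp or more in 6 libraries and at 977 bp or less in 3. Only 4 domains, named here for that property, reached 1000 bp in all 9 libraries. They lay in an intron of Tlk (the Tousled-like kinase; 1331 to 1358 bp over the 9), in an intron of CG32486 (1073 to 1266 bp), between genes near Rilpl (1053 to 1565 bp) and near lncRNA:CR44588 (1092 to 1296 bp). No TSS lay inside any of the 4. At tsh, a zinc-finger homeotic gene, the range was 959 to 1065 bp, with 1065 and 1000 bp in wild-type, 1060 and 1065 bp in Δl(3)mbt, 1009 and 1006 bp in w1118 and 959 bp in each vas-EGFP library. Others of the 12 widest lay at galectin (2013 bp in the merged wild-type list), CG12581, Parp1 (poly(ADP-ribose) polymerase), the nuclear receptor gene ftz-f1, Sap-r (lysosomal saposins), Gpdh1 (glycerol-3-phosphate dehydrogenase) and mrt.

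**Figure D3:**
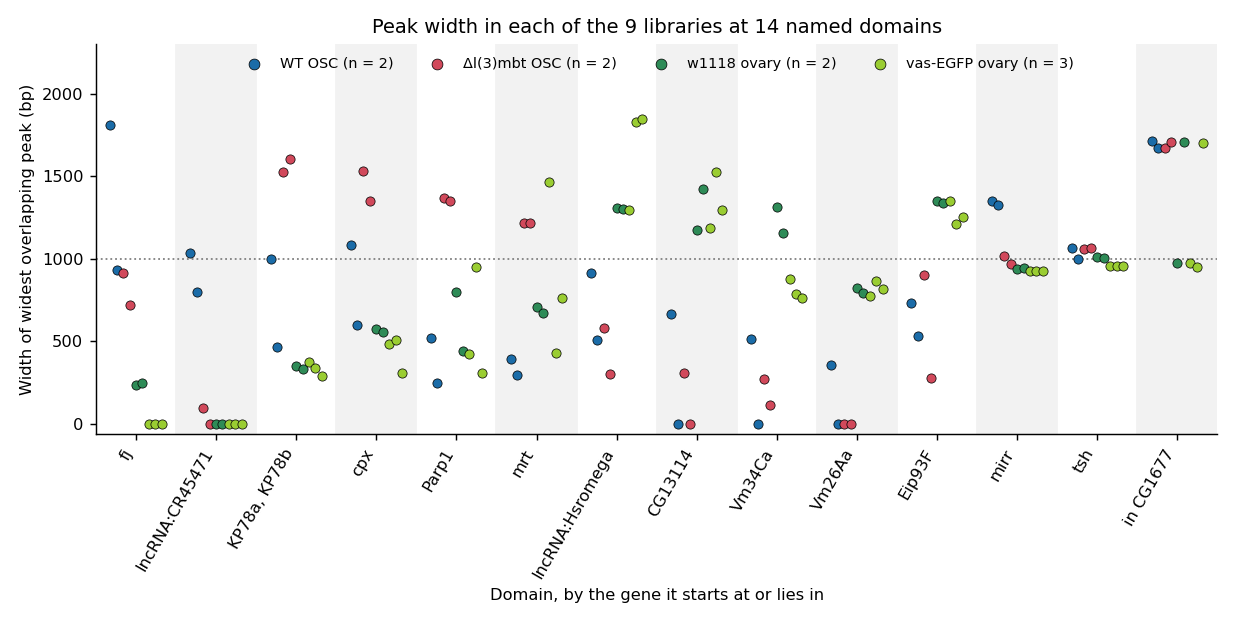
Width of the widest overlapping peak (y axis, bp) in each of the 9 libraries at 14 named domains (x axis), with 1 point per library coloured by group and the dotted line at 1000 bp. At fj the wild-type library at 1807 bp is the highest point and the vas-EGFP points lie at 0 bp, at lncRNA:Hsromega the ovary points (1296 to 1846 bp) lie above the OSC points, and at tsh all 9 lie between 959 and 1065 bp.

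The first comparison set OSCs against ovaries, library by library. Every OSC library was wider than every ovary library at 181 of the 822 domains (22%), where 6.89% of all 69162 intervals met the same rule. Without the first kind it was 126 of 437 (28.8%). The share was 22.9% in the intervals of 500 to 999 bp, so that the count among the domains was near that of the next width class. Every ovary library was wider than every OSC library at 79 domains (9.61%), all of them outside the first kind, where 4.94% of all intervals and 12.2% of the next class did so. Of the 79, 71 were among the 151 domains broad in ovary lists alone. Both that class and the first kind were chosen on the widths of lists made from the same reads. The overlap of 71 and the absence of the first kind from the 79 thus follow from the choice. Of the 181, 175 were among the 589 domains broad in OSC lists alone, which follows from the choice as well. An ovary library averages over its cell types, so that fewer cells with an open domain and a less open domain in each cell cannot be told apart.

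Widths in libraries that took no part in the choice gave the same order. The 151 domains of 1000 bp in the w1118 list and not in the wild-type list had median widths of 727, 747 and 700 bp in the 3 vas-EGFP libraries and 576 and 464 bp in the 2 Δl(3)mbt libraries. The 496 domains of 1000 bp in the wild-type list and not in the w1118 list had medians of 0 bp in each vas-EGFP library and of 469.5 and 115.5 bp in Δl(3)mbt replicates 1 and 2. They include all 385 of the first kind, whose median was 0 bp in wild-type replicate 2 as well. Their medians are thus not a plain comparison of OSCs with ovaries. Of those 496, 90 reached 1000 bp in Δl(3)mbt replicate 1, 38 in replicate 2, and 1, 1 and 3 in the vas-EGFP libraries. The 44 domains broad in both lists had medians of 1107.5 and 1027 bp in Δl(3)mbt and 987.5, 868 and 944.5 bp in vas-EGFP libraries. Peaks of 500 to 999 bp, read from 1 merged list to another, had the same order. Those of w1118 had a median of 592 bp in vas-EGFP and 493 bp in Δl(3)mbt. Those of wild-type had 73 bp in vas-EGFP and 462 bp in Δl(3)mbt. The order was thus not particular to the domains.

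Breadth recurred in the second group of the same material at an unequal rate. Of 195 broad peaks in the w1118 list, 111 (56.9%) were at least 1000 bp in the vas-EGFP list, and 111 of 149 (74.5%) the other way. Of 540 in the wild-type list, 147 (27.2%) were broad in the Δl(3)mbt list, and 147 of 278 (52.9%) the other way. Across materials the 8 shares ranged from 7.78% (wild-type to vas-EGFP) to 40.3% (vas-EGFP to Δl(3)mbt). For peaks of 500 to 999 bp the same shares were 1.71% from w1118 to vas-EGFP and 3.66% the other way. They were 2.44% from wild-type to Δl(3)mbt and 4.25% the other way. These peaks were below 1000 bp where they were chosen and the domains were not, so the shares are not a like comparison.

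The second comparison set Δl(3)mbt against wild-type OSCs. Both Δl(3)mbt libraries were wider than both wild-type libraries at 156 domains (19%), where 9.09% of all intervals and 18.2% of those of 500 to 999 bp were. Of these, 153 were among the 437 domains of the second kind (35%), and 53 among the 151 domains broad in ovary lists alone (35.1%). Both wild-type libraries were wider at 6 of the 151 (3.97%). Split by replicate number, both replicate 1 libraries were wider at 46 of the 151 (30.5%) and both replicate 2 libraries at 15 (9.93%). Over all 822 domains, both wild-type libraries were wider at 34 (4.14%), where 2.74% of all intervals and 5.52% of the next class were. Of the 34, 20 belonged to the first kind. Both counts depended on single libraries: without wild-type replicate 1 the Δl(3)mbt libraries were wider at 399 domains and the remaining wild-type library at 54, and without wild-type replicate 2 at 193 and 495. Over the 437 domains of the second kind, the Δl(3)mbt libraries were wider at 153 and the wild-type libraries at 14. The same 4 libraries split by replicate number gave 159 and 22. The second kind leaves out the 385 domains broad in the wild-type list alone and keeps the 103 broad in the Δl(3)mbt list alone. Its choice thus used the widths compared here and favours Δl(3)mbt, so 153 against 14 and the 35% are no evidence of a genotype difference.

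The largest difference towards Δl(3)mbt was at Parp1 (3R, 3586059 to 3587750), with 1369 and 1347 bp in Δl(3)mbt against 522 and 249 bp in wild-type OSCs, and with 798 and 440 bp in w1118 and 423, 949 and 307 bp in vas-EGFP ovaries. At mrt (3R, 27280800 to 27282343) both Δl(3)mbt libraries had about the same width, 1215 and 1214 bp, against 391 and 297 bp in wild-type. KP78a and KP78b, neighbouring kinase genes of the MARK family, shared a domain with 1525 and 1603 bp in Δl(3)mbt, 996 and 464 bp in wild-type and 292 to 373 bp in ovaries. In each of these 3 the Δl(3)mbt widths lay closer together than the wild-type ones. A domain in an intron of para, the voltage-gated sodium channel gene, lay 162 bp from the nearest TSS, that of Cnx14D (X, 16525577 to 16526696). It had 1108 and 1078 bp in Δl(3)mbt, 385 and 206 bp in wild-type and no peak in any ovary library. The other 2 of the 6 lay at lncRNA:CR44517, with a mean of 1077 against 336.5 bp, and at alpha-Man-IIb, a Golgi mannosidase, with 1096 against 448 bp. The gene cpx (complexin, a regulator of synaptic vesicle release) had 1532 and 1348 bp in Δl(3)mbt against 1081 and 601 bp in wild-type and 310 to 575 bp in ovaries.

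Towards wild-type the largest difference was at lncRNA:CR45471 (2R, 4729865 to 4730918), with 1035 and 801 bp in wild-type, 98 and 0 bp in Δl(3)mbt and no peak in ovaries. It was the only 1 of the 6 besides fj in which both wild-type libraries passed 800 bp. In the remaining 4, in or over Cbl, CG43736, SmydA-8 and CG6966, wild-type replicate 1 had 1030 to 1277 bp and wild-type replicate 2 had 90 to 216 bp. These 4 had a GC content of 57.5% to 62.9% and a coding share of 76.6% to 99%, and were of the first kind.

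**Figure D4:**
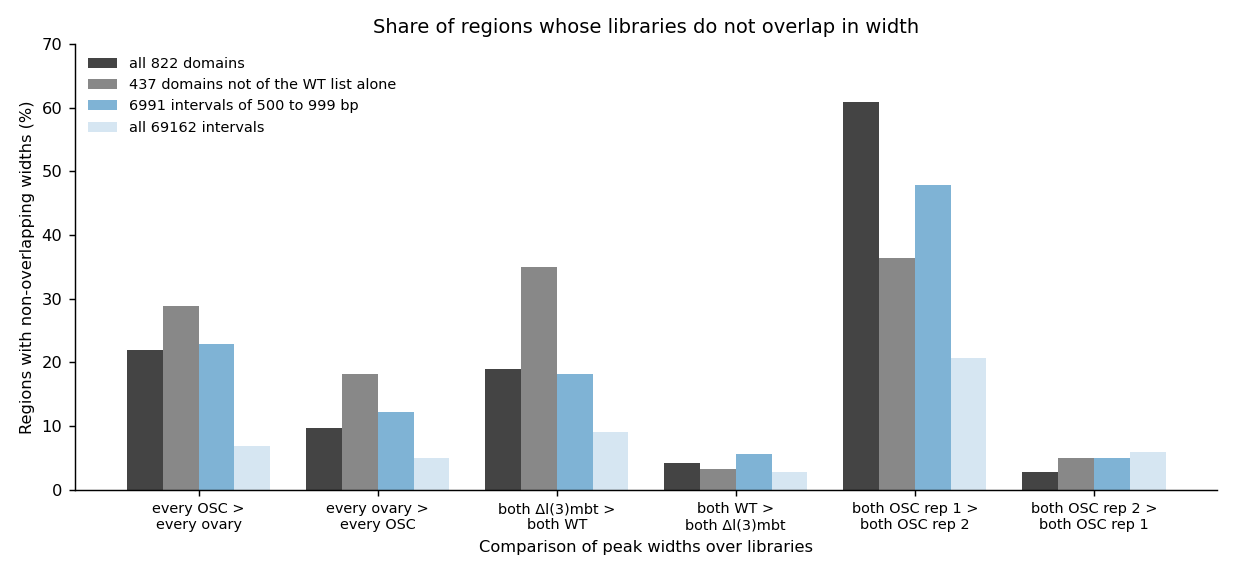
Share of regions (y axis, %) in which all libraries of 1 set had a wider peak than all libraries of the other (x axis), for all 822 domains, the 437 outside the merged wild-type list alone, the 6991 intervals of 500 to 999 bp and all 69162 intervals. The tallest bar is for the 2 OSC replicate numbers (60.9% of the 822 domains), and the bar for both Δl(3)mbt libraries over both wild-type libraries stands at 19%.

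Domains over a promoter extended into the gene. Among the 305 domains over the TSS of 1 gene, the median reach was 219 bp upstream and 919 bp downstream of the TSS, and 242 (79.3%) reached further downstream. In the 500 to 999 bp class the medians were 213.5 and 460.5 bp (68.4% further downstream), and over all intervals 131 and 106 bp (45.2%). The classes differed in this: the first kind reached 118.5 bp upstream and 1011 bp downstream, and the second 276 and 873 bp. The summit had a median position of -16 bp from the TSS, and it was upstream in 176 domains and downstream in 127. Domains of the Δl(3)mbt list alone reached 424 bp upstream and 675 bp downstream, and those of the ovary lists alone 290 and 851.5 bp.

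**Figure D5:**
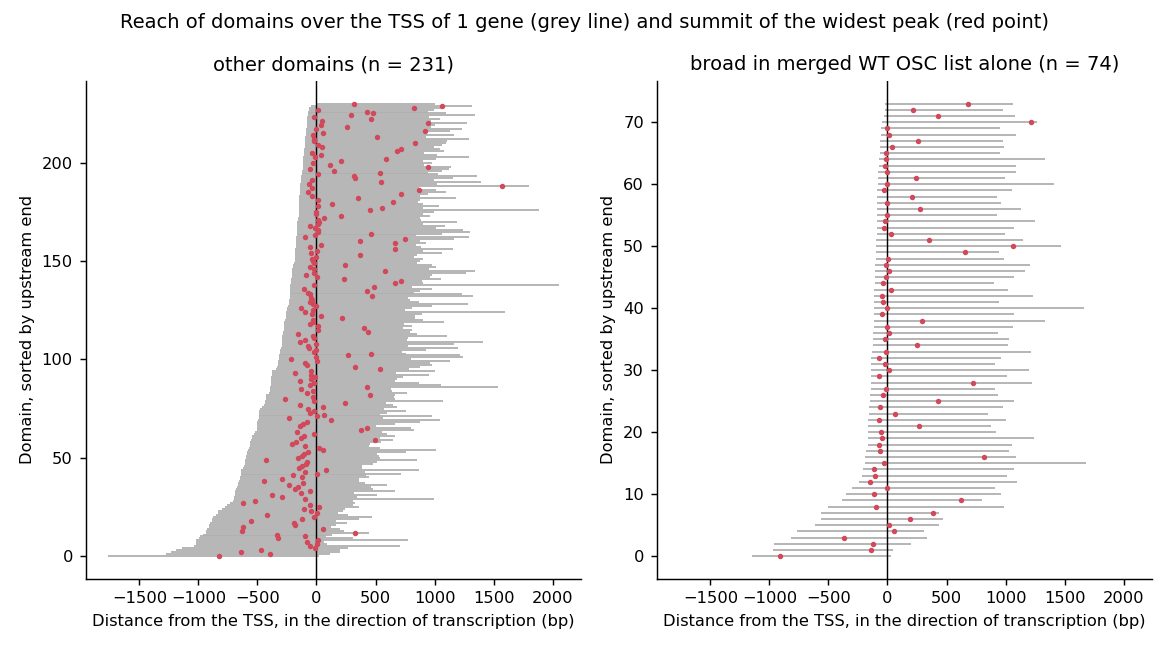
Extent of the 305 domains over the TSS of 1 gene (grey lines; x axis, distance from the TSS in the direction of transcription, bp; y axis, domains sorted by their upstream end), with the summit of the widest peak as a red point, for the 74 domains broad in the merged wild-type list alone (right) and the other 231 (left). Most lines run further to the right of 0 than to the left (66 of 74 and 176 of 231), and most summits lie close to 0.

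Of 7 motifs counted on both strands in the 300 bp around the summit, GAGAG was the commonest. It was present in 359 of 822 windows (43.7%), against 44.2% in the 500 to 999 bp class and 35.9% in all intervals. The share was 33.2% in the first kind, where the median GC content of the window was 60.3%, and 52.9% in the second, where it was 47%. In the 28 domains broad in all 4 lists it was 19 windows (67.9%), of which the CG1677 sequence printed above is 1. CCGTTA, the sequence bound by Ovo, was found in 16 of 151 windows of the ovary-only class (10.6%) and in 9 of 82 of those broad in both materials (11%). Of the 28 broad in all 4 lists it was found in 1 (3.57%). It was found in 3.9% of the OSC-only class, with 3.38% in the first kind, 5.94% in those of both OSC lists and 3.88% in those of the Δl(3)mbt list alone. The share was 7.02% in the 500 to 999 bp class and 5.96% over all intervals. TGANTCA was found in 10.7% of the domains of the Δl(3)mbt list alone, 5.47% of all domains and 5.93% of all intervals. The others (TATCGATA of the promoter factor DREF, CATTCC of TEAD factors, TTCNNNGAA of STAT and CAGGTAG of the embryonic factor Zelda) were in 3.53%, 12.3%, 4.87% and 2.55% of the 822 windows. Over all intervals the shares were 1.83%, 14.4%, 6.55% and 2.19%, above the domains for CATTCC and TTCNNNGAA, with no test made. A match is a run of letters and not a bound site, and base composition differed between the classes.

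Genes of 14 lists were looked up among the domains. Of 228 genes matched to the annotation, 22 had a TSS in a domain, that is 10.7% of those with a TSS in an accessible interval, against 468 of 9209 (5.08%) for all genes. The lists were picked for this tissue, so this says only how often their members occurred. The ecdysone response had 4 of 13: Eip93F, Hr39 and ftz-f1, which encode DNA-binding factors of the hormone cascade, and tai, a coactivator of the ecdysone receptor. Eip93F (3R, 21948238 to 21949586) had 1347 and 1339 bp in w1118 and 1347, 1211 and 1254 bp in vas-EGFP ovaries, against 730 and 536 bp in wild-type and 901 and 276 bp in Δl(3)mbt OSCs. Its ovary and OSC libraries did not overlap. Hr39, in contrast, had 1089 and 823 bp in wild-type and 1078 and 850 bp in Δl(3)mbt, and 527 to 1059 bp in ovaries. At tai the domain over the TSS had 1059 and 691 bp in Δl(3)mbt and 464 to 671 bp in the other 7 libraries.

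Eggshell and yolk genes had 3 of 13, all broad in ovary lists alone. Vm34Ca and Vm26Aa encode proteins of the vitelline membrane, which follicle cells secrete, and yellow-g2 belongs to the yellow family of eggshell genes. Vm34Ca (2L, 13410653 to 13411960) had 1313 and 1157 bp in w1118 and 878, 790 and 766 bp in vas-EGFP ovaries, against 514 and 0 bp in wild-type and 273 and 113 bp in Δl(3)mbt OSCs. Vm26Aa had 825 and 795 bp in w1118 and 778, 864 and 820 bp in vas-EGFP ovaries, 358 and 0 bp in wild-type and 0 bp in both Δl(3)mbt libraries. Ovary and OSC libraries did not overlap at either gene, while at yellow-g2 they did, with 870 bp in wild-type replicate 1 and 320 bp in w1118 replicate 1.

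The heat shock list had 3 of 12 (lncRNA:Hsromega, DnaJ-1 and Hsc70-4), all broad in ovary lists alone. Of the follicle cell regulators, 2 of 22 lay in domains. At mirr, an Iroquois homeodomain gene that patterns the follicle epithelium, the widths were 1350 and 1327 bp in wild-type, 1016 and 969 bp in Δl(3)mbt and 925 to 947 bp in the ovaries, and the 3 sets did not overlap. The domain at bun, a TSC22-family gene, passed 1000 bp in w1118 replicate 1 alone (1091 bp). Signalling genes were pnt (the ETS factor of EGFR signalling) and dome (the JAK/STAT receptor). The pnt domain was broad in the Δl(3)mbt list alone. The dome domain, which also held the TSS of Ubqn, was broad in both OSC lists (1035 bp in wild-type, 1201 bp in Δl(3)mbt). At pnt the widths were 760 and 455 bp in Δl(3)mbt against 438 and 396 bp in wild-type, while at dome they overlapped (1179 and 636 bp against 1069 and 307 bp). Other list members with a TSS in a domain were the housekeeping genes Gapdh1 and Gapdh2, inv (a homeodomain factor of the engrailed family) and tsh. The rest were puc (a phosphatase of JNK signalling), Thor (the translation inhibitor 4E-BP), cpx and fj. Of these, Gapdh2 and inv were of the first kind. They had 1324 and 1233 bp in wild-type replicate 1, and 276 to 593 bp and 276 to 350 bp in the other libraries. No gene of the germline list (0 of 18 with an accessible TSS), of the chromatin and L(3)mbt list (0 of 16), or of the muscle (0 of 10) and hemocyte (0 of 3) lists had its TSS in a domain.

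The threshold of 1000 bp cut through a continuous range of widths: 270 merged-list peaks measured 1000 to 1049 bp and 343 measured 950 to 999 bp. Just inside were a coding exon peak shared by BicC and CG45084 (1000 bp, fold enrichment 2.79, wild-type list), one at Swim (1000 bp, 1.97, wild-type list) and bun (1001 bp, 16.1, w1118 list). Just outside, at 999 bp each, were a coding exon peak of tai (1.91, wild-type list), CdGAPr (5.77, Δl(3)mbt list) and GstE12 (13.8, Δl(3)mbt list). Of the 822 domains, 183 reached 1000 bp in no single library, among them 56 of the 103 of the Δl(3)mbt list alone.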

How the data were processed

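Open chromatin was measured by ATAC-seq in 9 libraries. The authors trimmed adapters with cutadapt 1.18, aligned to dm6 with BWA, marked duplicates with Picard 2.9.0, filtered with SAMtools 1.9, and called peaks with MACS2 2.1.1.20160309 (shift of -37 bp, extension of 73 bp, q of at most 0.05) in each library and in merged replicates. The deposited peak lists give each peak's position and its fold enrichment over the local background, a ratio made by the peak caller. The deposited lists also hold −log10 p and q-values from MACS2 and a score, of which only −log10 q was used, as an alternative threshold. A table of the authors' own comparison (log2 fold changes, FDR) was not used. The depth behind a peak is unknown from these lists, so no interval is given.

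Merged-list peaks of at least 1000 bp that overlapped by 1 bp or more were joined. The value in a library is the width of its widest overlapping peak, and 0 where there was none. The same was done for all 69162 intervals of the 4 lists. Positions used Ensembl release 115 (18277 genes, 24111 TSSs), and sequence came from RefSeq. Python 3.11.15, NumPy 2.4.6, pandas 2.3.3 and Matplotlib 3.10.9 were used. The code was tested on simulated data: of 1000 planted regions, all 1000 had the 9 widths recovered. Members and gene lists were chosen with earlier results of these data known. The domains named are the 12 widest of each material class, the 6 with the largest difference in each direction between the OSC genotypes and gene list members with a TSS in a domain, and any others were chosen after their values were seen. One of the domains that this rule names is not reported here. Alternatives were other width minimums, other definitions of position and width, a stricter q, leaving out each library and a replicate block.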

Additional observations from a re-analysis of the deposited data

How the results depend on the processing

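The number of domains depended on the minimum width and on 1 list. With minimums of 800, 1200 and 1500 bp there were 2100, 331 and 80 domains, of which 1379, 256 and 68 were broad in OSC lists alone, 413, 55 and 10 in ovary lists alone and 308, 20 and 2 in both. Without the merged wild-type list, a choice made after seeing the data, 437 domains remained, 204 of them in OSC lists alone. A TSS lay inside 46.6% of the domains, 33.8% at 1500 bp, 63.3% within 1 kb, 43.2% for protein-coding genes, 33.2% by the summit within 200 bp, and 68% without the domains of the wild-type list alone (chosen after seeing the data). Leaving out 1 library moved the count with wider Δl(3)mbt libraries between 189 and 399 (264 without Δl(3)mbt replicate 2, 399 without wild-type replicate 1), and the count with wider wild-type libraries between 49 and 495 (54 without wild-type replicate 1, 495 without wild-type replicate 2, 182 without Δl(3)mbt replicate 1). The latter was 14 without the domains of the wild-type list alone, a choice made after seeing the data and on wild-type width. For OSCs against ovaries the leave-out ranges were 181 to 260 and 79 to 99. With the replicate block, which asked for the wider library within each number, the counts were 221 towards Δl(3)mbt and 144 towards wild-type, with 13.6% and 4.9% of all intervals. The numbers are shared labels only, the peak names in the second lists carry 3 and 4 instead, and 2 pairs cannot show pairing. The share broad again was 34.9% (a single library of the other group) or 79.5% (at 800 bp) from w1118 to vas-EGFP, 63.1% or 83.2% back, 23.5% or 34.8% from wild-type to Δl(3)mbt and 42.4% or 70.1% back. The ratio of motif shares, domains over all intervals, went from 1.22 to 1.47 for GAGAG, 0.98 to 1.34 for CCGTTA and 0.922 to 1.23 for TGANTCA without the domains of the wild-type list alone (chosen after seeing the data), and from 1.93 to 0.856 for TATCGATA counted per kb. The causes were not tested.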

Other observations

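Mobile elements of the Ensembl annotation were rare in the domains, and other repeats were not looked for. At least 50% of the length was annotated as a mobile element in 8 of 822 (0.973%), against 0.763% of all intervals, and all 8 were broad in OSC lists, 4 of them in the Δl(3)mbt list alone. One on chromosome 4 measured 1236, 1231, 0 and 918 bp in the merged wild-type, Δl(3)mbt, w1118 and vas-EGFP lists. The 3 domains on the Y, a chromosome that female flies do not carry, were each broad in 1 OSC list (1018, 1072 and 1180 bp), measured 622 to 790 bp in the other OSC list and had 0 bp in both ovary lists, and the source of these reads was not tested. A tRNA, snRNA, snoRNA or rRNA gene lay in 9 of the 151 domains broad in ovary lists alone (5.96%), in 1.58% of all 822 domains, in 1.46% of the intervals of 500 to 999 bp and in 0.408% of all intervals, which are shorter.

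Some genes held several domains. Of 891 genes overlapped by a domain, 62 held 2 and 7 held 3 or more, namely Mur2B, EcR, Kdm4B, br, kek5, mamo and tai. The 3 domains of EcR, the ecdysone receptor gene, which were chosen after their values were seen, differed: 1 was broad in all 4 lists (1120 and 1103 bp in wild-type, 1125 and 1091 bp in Δl(3)mbt, 664 and 1076 bp in w1118, 1093, 805 and 810 bp in vas-EGFP), 1 in w1118 alone (634 and 1024 bp there, 151 to 451 bp in OSCs) and 1 in the wild-type list alone (1012 and 0 bp). Of the broad peaks of wild-type replicate 1, 443 lay in domains and 196 did not.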
